A study of Homo sapiens with 3 samples.

Results

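The acute phase genes HP, HPX, ORM1, ORM2, SAA1, SAA2, SAA4 and LBP were taken by symbol from a table of gene expression in Hep-G2, an established human hepatoma line. All 8 symbols were found among the 21572 in the table. The table holds 3 libraries of total RNA, 1 per group. In the first group, called sh#7, the cells carried the short hairpin RNA (shRNA) TRCN0000246247 against FTO. In the second, called sh#2, they carried TRCN0000255402 against FTO. In the control they carried SHC002, which the series design calls a scramble. All 3 cultures were at passage 21, in serum-supplemented DMEM, and no cytokine or other agent is named. The sources used here do not say whether a line was 1 clone or a pool.

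FTO, the target of both hairpins, encodes an enzyme that takes the methyl group off N6-methyladenosine in RNA. It was measured at 2.55 FPKM in sh#7, 5.29 FPKM in sh#2 and 9.02 FPKM in control, the order of knockdown that the series design gives. FPKM is fragments scaled to transcript length and to the mapped total, so it can be read across genes of different length. Low values put the depth at about 45700000 fragments in sh#7, 46500000 in sh#2 and 46900000 in control. The 9 hepatocyte markers checked were all present in every library, with summed levels of 9098 FPKM in sh#7, 15983 FPKM in sh#2 and 20612 FPKM in control. HNF4A, the hepatocyte nuclear receptor, was at 81.3, 97.5 and 93.1 FPKM in sh#7, sh#2 and control. AFP, the fetal albumin that hepatoma lines make, was at 15.7, 294 and 961 FPKM in sh#7, sh#2 and control. Of the defining markers of other cell types, PTPRC, CD3E and COL3A1 were listed at 0 in all 3 libraries, and no endothelial marker exceeded 0.118 FPKM. The 4 fibroblast and stellate markers summed to 52.7 FPKM in sh#7, 35.4 FPKM in sh#2 and 43.9 FPKM in control, nearly all of it ACTA2, an actin gene, at 51.5, 33.6 and 40.2 FPKM. PDGFRB of the same list was at 0.616, 1.69 and 3.76 FPKM in sh#7, sh#2 and control. The 6 leukocyte markers, of which CD68 made up most, summed to 24.7 FPKM in sh#7, 32.4 FPKM in sh#2 and 41.6 FPKM in control, and the part of marker levels in the results below was not tested. Each group is 1 library, so nothing here measures the spread between cultures, no test was possible, and an effect of FTO cannot be told apart from an effect of a line. In bulk RNA, fewer cells expressing a gene and less RNA per cell cannot be told apart either.

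The acute phase response is the change in plasma proteins that follows infection or injury. Interleukin-6, interleukin-1 and glucocorticoids act on hepatocytes, where STAT3, NF-kB and the C/EBP factors raise the transcription of positive acute phase genes. Haptoglobin (HP) binds free haemoglobin and hemopexin (HPX) binds free haem. The orosomucoids (ORM1 and ORM2) bind basic and neutral drugs and lipids. Serum amyloid A proteins travel on high density lipoprotein. SAA1 and SAA2 are the strongly inducible forms, and SAA4 is made constitutively. LBP carries bacterial lipopolysaccharide to CD14.

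The 8 genes did not move as a block. In sh#7, SAA4 was at 16.0% and HP at 33.8% of the control, HPX was at 69.5%, while ORM1 and ORM2 were at 136% and 119%. In sh#2, HPX was at 241% and SAA4 at 146% of the control, and HP, ORM1 and ORM2 were at 113%, 103% and 99.5% of it. SAA1, SAA2 and LBP were at 0.398 FPKM or less in every library. The 5 genes that averaged 1 FPKM or more were all at 3.98 FPKM or more in every library, so none of them passed that minimum through 1 library alone.

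**Figure D1:**
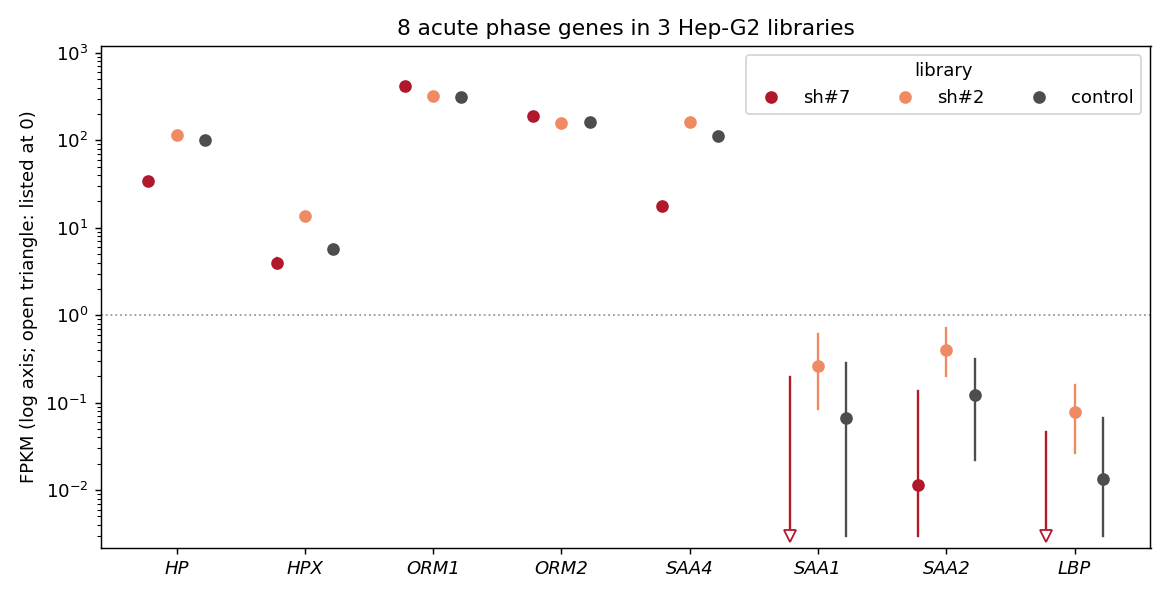
FPKM of the 8 genes in sh#7, sh#2 and control, on a log axis. Points are single libraries, vertical lines are exact 95% Poisson intervals on estimated fragments (counting error only), open triangles mark a gene listed at 0, and the dotted line marks 1 FPKM. HP and SAA4 are low in sh#7, HPX is high in sh#2, and SAA1, SAA2 and LBP lie below 1 FPKM throughout.

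Differences were taken on the log2(FPKM + 1) scale and counted as past 2-fold at 1 or more in size, over the 11069 genes that averaged 1 FPKM or more. This scale understates changes of low genes. In sh#7 against control, 2 of the 5 compared genes were past 2-fold lower, where 2.48% of all compared genes were, and 0 were past 2-fold higher, where 2.35% of all compared genes were. In sh#2 against control, 1 of 5 was past 2-fold higher, where 0.506% of all were, and 0 were past 2-fold lower, where 0.723% were. In sh#7 against sh#2, 3 of 5 were past 2-fold lower and 0 past 2-fold higher, where 1.52% and 1.45% of all compared genes were. The comparisons share libraries, so they are not independent of each other. The median difference of the 5 genes was -0.43 in sh#7 against control and 0.17 in sh#2 against control. Over all compared genes it was 0.16 in sh#7 and 0.10 in sh#2.

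HP, which encodes the haemoglobin scavenger haptoglobin, was at 34.2 FPKM in sh#7, 114 FPKM in sh#2 and 101 FPKM in control. The sh#7 library was low, and the other 2 lay close to each other. The sh#7 level was 33.8% of the control (95% interval 31.9 to 35.7) and 29.9% of sh#2 (28.3 to 31.6). These and all later intervals are exact and cover counting error only. The difference from control was -1.54 on the log2 scale in sh#7 and 0.17 in sh#2. The sh#2 level was 113% of the control (109 to 117), and on the log2 scale it was 0.07 above the median of all genes. With median-of-ratios scaling the sh#2 difference of HP was 0.06, and with upper-quartile scaling 0.08. By size, the sh#7 difference was the 105th lowest of the 11069.

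HP adjoins HPR, the haptoglobin-related gene, which encodes a component of a trypanosome-killing lipoprotein particle. HPR was at 7.35 FPKM in sh#7, 13.2 FPKM in sh#2 and 13.9 FPKM in control, a log2 difference of -0.83 in sh#7. The coding sequences of HP and HPR are identical at 991 of 1041 aligned bases (95.2%), and 33.4% of the 50-base words of the HP transcript occur in that of HPR. How reads were divided between them is not known. Summed over both genes, the level was 41.6 FPKM in sh#7, 128 FPKM in sh#2 and 115 FPKM in control, so the sum was at 36.1% of the control in sh#7.

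HPX, which encodes the haem scavenger hemopexin, was at 3.98 FPKM in sh#7, 13.8 FPKM in sh#2 and 5.72 FPKM in control. Here the sh#2 library was high and sh#7 was the lowest. The sh#2 level was 241% of the control (214 to 272), with a log2 difference of 1.14, and it was the 41st highest difference of 11069. The sh#7 level was 69.5% of the control (59.2 to 81.4) and 28.8% of sh#2 (25.0 to 33.0). On the log2 scale HPX differed by -0.43 in sh#7 against control and by -1.57 in sh#7 against sh#2. HPX was the least abundant of the 5 compared genes in every library.

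ORM1 and ORM2 encode alpha-1-acid glycoproteins and were the most abundant of the 8 genes in FPKM in sh#7. ORM1 was at 423 FPKM in sh#7, 321 FPKM in sh#2 and 309.8 FPKM in control. ORM2 was at 191 FPKM in sh#7, 159.6 FPKM in sh#2 and 160.4 FPKM in control. For both genes sh#7 was the highest library, and no library reached 2-fold of another. ORM1 was at 136% of the control in sh#7 (133 to 140.3) and 103% in sh#2 (100.4 to 107). ORM2 was at 119% in sh#7 (114 to 124) and 99.5% in sh#2 (95.3 to 104), so the sh#2 and control levels of ORM2 did not differ beyond counting error. The log2 difference from control in sh#7 was 0.45 for ORM1 and 0.25 for ORM2. Against the median of all genes, which was itself 0.16 above control, these were 0.29 and 0.09. Both stayed above 0 in sh#7 under all 3 other scalings tried, where ORM2 was at 0.06 with median-of-ratios scaling, 0.12 with upper-quartile scaling and 0.22 without the 100 highest genes. In sh#2 the sign for ORM1 turned with scaling, from 0.05 as deposited to -0.07 with median-of-ratios scaling.

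ORM1 and ORM2 are a near-identical pair, next to each other on chromosome 9. Their coding sequences are identical at 572 of 603 bases (94.9%), and 47.4% of the 50-base words of the ORM1 transcript occur in that of ORM2, so how reads were divided within the pair is uncertain. The differences are not spread evenly. The 90 coding bases with the most of them, bases 314 to 403 from the first base of the start codon, hold 18 of the 31 and show where reads can tell the genes apart. They are given from GENCODE 29, with the differing bases in capitals.
ORM1: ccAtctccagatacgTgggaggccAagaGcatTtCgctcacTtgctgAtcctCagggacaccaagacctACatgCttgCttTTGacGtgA
ORM2: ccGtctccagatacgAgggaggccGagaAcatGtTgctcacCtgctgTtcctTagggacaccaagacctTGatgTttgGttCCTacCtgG
A sum over the pair would be little changed by that division if all shared reads were kept, which is not known. The sum was 613.5 FPKM in sh#7, 480.1 FPKM in sh#2 and 470.3 FPKM in control. It was at 130.5% of the control in sh#7 and 102% in sh#2. ORM1 made up 68.9% of the pair's FPKM in sh#7, 66.8% in sh#2 and 65.9% in control.

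SAA4 encodes the constitutive serum amyloid A and was at 17.8 FPKM in sh#7, 163 FPKM in sh#2 and 111 FPKM in control. It spanned the widest range of the 5 compared genes, with sh#7 far below the others and sh#2 above the control. The sh#7 level was 16.0% of the control (14.4 to 17.8) and 11.0% of sh#2 (9.90 to 12.1). The sh#2 level was 146% of the control (139 to 154). On the log2 scale SAA4 differed from control by -2.58 in sh#7 and 0.55 in sh#2, and sh#7 differed from sh#2 by -3.12. These were the 33rd lowest, the 384th highest and the 14th lowest differences among 11069 genes. A readthrough transcript listed as SAA2-SAA4 did not exceed 0.0999 FPKM in any library.

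SAA1 and SAA2, the inducible forms, are the other near-identical pair. Their coding sequences are identical at 355 of 366 bases (97.0%), whereas SAA4 and SAA2 share 73.5% of aligned coding bases and no 50-base word of their transcripts. Of the 50-base words of the SAA1 transcript, 25.9% occur in that of SAA2, so how reads were divided between SAA1 and SAA2 is uncertain too. The 90 coding bases with the most differences, bases 215 to 304, hold 9 of the 11 and are given from GENCODE 29 with those bases in capitals.
SAA1: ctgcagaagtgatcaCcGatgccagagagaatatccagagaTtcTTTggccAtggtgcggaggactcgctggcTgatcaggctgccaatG
SAA2: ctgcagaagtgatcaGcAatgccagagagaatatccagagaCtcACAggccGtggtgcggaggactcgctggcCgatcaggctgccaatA
SAA1 was listed at 0 in sh#7, with 0.260 FPKM in sh#2 and 0.0668 FPKM in control, which corresponds to about 5.0 fragments in sh#2 and 1.3 in control. SAA2 was at 0.0116 FPKM in sh#7, 0.398 FPKM in sh#2 and 0.122 FPKM in control, or about 0.3, 10.9 and 3.4 fragments. Both genes were close to the limit of these libraries. For SAA1 in sh#7 a count of 0 allows up to 3 fragments, or 0.158 FPKM, as a one-sided limit, and the interval plotted above, which is two-sided, ends at 0.195 FPKM. For SAA2 in sh#7 that interval ends at 0.136 FPKM. The ratio of sh#2 to control was 3.89 for SAA1 (0.565 to 239) and 3.25 for SAA2 (0.978 to 20.7). Neither ratio could be told from 1 at this depth. The highest estimate for the summed pair was about 16.0 fragments, in sh#2, against 4.7 in control, and 0.3 were estimated in sh#7.

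LBP, the carrier of lipopolysaccharide, was listed at 0 in sh#7, with 0.0778 FPKM in sh#2 and 0.0133 FPKM in control. These levels correspond to about 6.4 fragments in sh#2 and 1.1 in control, and 3 fragments, the one-sided limit for a count of 0, would be 0.0373 FPKM in sh#7. The plotted interval ends at 0.0458 FPKM there. The ratio of sh#2 to control was 5.84 (0.735 to 279), so no difference between these 2 was detectable at this depth. For SAA1, SAA2 and LBP alike, sh#2 held the highest value and sh#7 the lowest. At the upper end of the interval, the sh#7 level was 40.5% of sh#2 for SAA2 and 86.3% for LBP. Both were thus below sh#2 beyond counting error, if the approximate fragment numbers hold. The LBP result rests on about 6.4 fragments in sh#2, and that of SAA2 also on the division of reads with SAA1. For SAA1 that upper end was 111%, and none of the 3 genes could be told apart between sh#2 and control. CRP and APCS, the pentraxins of the acute phase, were listed at 0 in all 3 libraries, and were named here after their values were seen.

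The summed FPKM of the 8 genes was close in the 3 libraries, at 669.6 FPKM in sh#7, 772 FPKM in sh#2 and 689 FPKM in control, while its make-up differed. ORM1 and ORM2 together held 91.6% of it in sh#7, 62.2% in sh#2 and 68.3% in control. HP held 5.11% in sh#7, 14.8% in sh#2 and 14.7% in control. SAA4 held 2.67% in sh#7, 21.1% in sh#2 and 16.2% in control. The order of abundance in FPKM was ORM1, ORM2, HP, SAA4, HPX in sh#7, ORM1, SAA4, ORM2, HP, HPX in sh#2, and ORM1, ORM2, SAA4, HP, HPX in control. The counting intervals of SAA4 and ORM2 met in sh#2 (158 to 168 and 155 to 164.5 FPKM), so these neighbours in the order could not be told apart there.

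**Figure D2:**
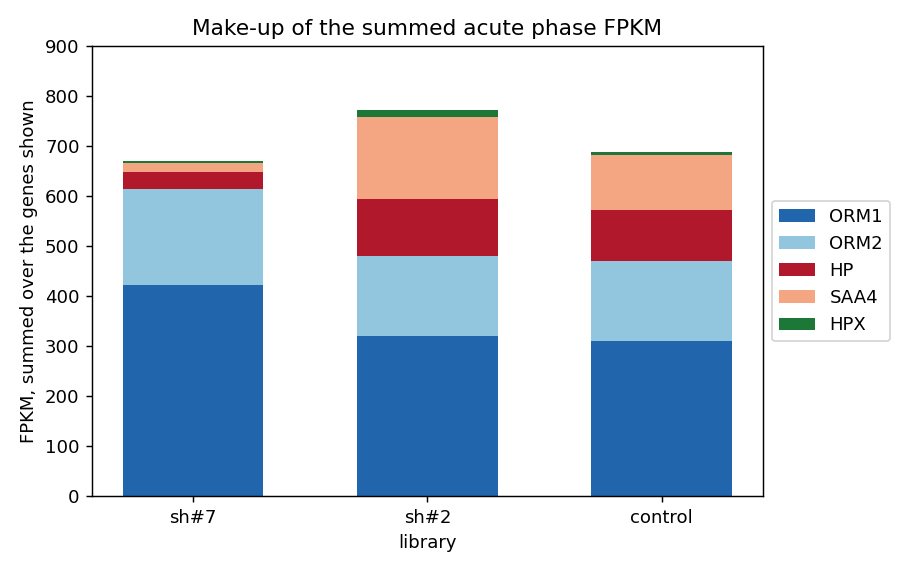
Stacked bars of the FPKM of ORM1, ORM2, HP, SAA4 and HPX in sh#7, sh#2 and control, 1 library each. SAA1, SAA2 and LBP are too low to be seen and were left out. The ORM share is 91.6% of the summed level in sh#7, against 62.2% in sh#2 and 68.3% in control.

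RefSeq promoter sequences on GRCh38.p14 were at hand for ORM1, HPX and SAA4, which showed the 3 kinds of difference described above. The 250 bases before each start site are given on the gene's strand. Capitals mark matches, on either strand, to 6 short patterns: TTGCNNAA (core of the C/EBP site), CTGGGAA (interleukin-6 response element), TTCNNNGAA (STAT), the NF-kB consensus, TGTTCT (glucocorticoid receptor half-site) and TATAAA (core promoter box).
ORM1, chr9:114322848-114323097, plus strand: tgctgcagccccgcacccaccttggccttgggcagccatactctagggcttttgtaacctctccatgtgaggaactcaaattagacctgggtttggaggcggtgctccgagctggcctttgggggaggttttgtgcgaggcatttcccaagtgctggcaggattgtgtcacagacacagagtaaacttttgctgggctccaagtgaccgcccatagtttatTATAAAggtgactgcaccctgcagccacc
HPX, chr11:6440988-6441237, minus strand: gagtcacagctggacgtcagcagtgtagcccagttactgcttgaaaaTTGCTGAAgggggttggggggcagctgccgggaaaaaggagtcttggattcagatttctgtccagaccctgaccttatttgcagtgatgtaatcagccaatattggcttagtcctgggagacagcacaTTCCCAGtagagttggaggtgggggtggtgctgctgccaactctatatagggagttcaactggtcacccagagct
SAA4, chr11:18236803-18237052, minus strand: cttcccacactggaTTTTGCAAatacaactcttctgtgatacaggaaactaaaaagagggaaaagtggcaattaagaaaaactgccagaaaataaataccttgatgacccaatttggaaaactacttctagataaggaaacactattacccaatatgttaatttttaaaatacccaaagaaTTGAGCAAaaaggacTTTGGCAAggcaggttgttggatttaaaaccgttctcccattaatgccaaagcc
SAA4 held 3 matches to the C/EBP core, which ended 229, 62 and 47 bases before the start site, and no match to the other patterns. HPX held 1 match to the C/EBP core, ending 196 bases before the start, and 1 to the interleukin-6 response element, ending 69 bases before it. ORM1 held 1 TATAAA, ending 24 bases before the start. No matches overlapped. Of 35116 promoter windows of the same length in the table, 9.05% held the C/EBP core, 9.15% CTGGGAA, 6.57% TTCNNNGAA, 9.96% the NF-kB consensus, 12.4% TGTTCT and 10.7% TATAAA. A match is a description of letters and not evidence of binding.

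Genes with the most similar pair of differences from control were sought among 8159 other genes averaging 5 FPKM or more across the 3 libraries. Nearest to HP were CDK2AP1, at 21.3 FPKM in sh#7, 66.3 FPKM in sh#2 and 61.1 FPKM in control, and the erythropoietin gene EPO, at 1.99, 9.63 and 8.57 FPKM. The distances were 0.08 and 0.14 on the log2 scale. Nearest to SAA4 were SCARNA20, a short RNA listed at 0 in sh#7, and C11orf31, at 3.97 FPKM in sh#7, 31.7 FPKM in sh#2 and 20.7 FPKM in control. Their distances were 0.35 and 0.45. Nearest to HPX were ODAM, at 7.88 FPKM in sh#7, 24.7 FPKM in sh#2 and 10.7 FPKM in control, and KANK4, at distances of 0.03 and 0.36. DNAJB6 and FAM160B2 were nearest to ORM1, and LAMP1 and BTAF1 to ORM2, all at distances of 0.0005 to 0.008.

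**Figure D3:**
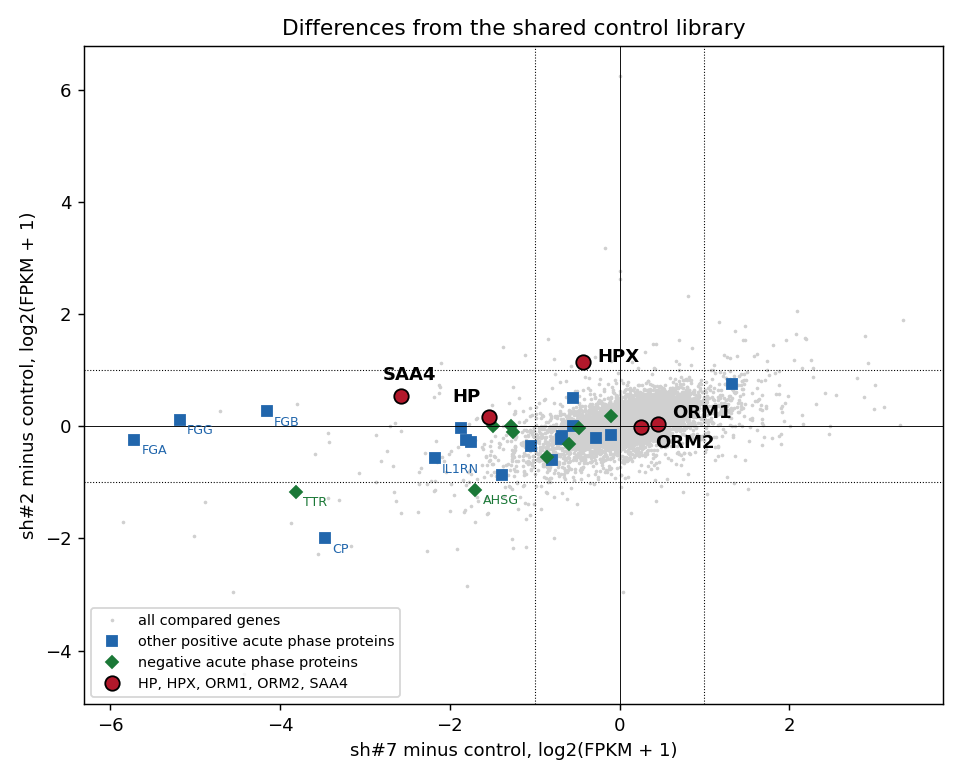
Differences in log2(FPKM + 1) from the shared control library, for sh#7 on the x axis and sh#2 on the y axis. Grey points are the 11069 compared genes, red circles HP, HPX, ORM1, ORM2 and SAA4, blue squares other positive and green diamonds negative acute phase genes, and dotted lines mark 2-fold. SAA4, at -2.58, and HP, at -1.54, lie left of the 2-fold line for sh#7. The fibrinogen genes lie much farther left, from -4.16 (FGB) to -5.72 (FGA). HPX lies above the upper line, and ORM1 and ORM2 lie inside the main cloud.

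The other positive acute phase genes, which encode plasma proteins that increase during the acute phase, lay mostly below the control in sh#7. Of 23 listed, 18 were compared, and 10 of these were past 2-fold lower and 1 past 2-fold higher in sh#7. In sh#2, 1 was past 2-fold lower, CP, and 0 higher. Their median difference was -1.22 in sh#7, against -0.22 in sh#2. The 10 lower genes were FGA, FGB, FGG, CP, SERPINA3, ITIH3, LCN2, MBL2, SERPING1 and IL1RN. The fibrinogen chains were the lowest relative to control. FGA was at 3.96 FPKM in sh#7, 219 FPKM in sh#2 and 259.7 FPKM in control. CP, the copper oxidase ceruloplasmin, was at 14.9 FPKM in sh#7, 43.1 FPKM in sh#2 and 175 FPKM in control. FGA was low in sh#7 alone, and CP in both lines. SERPINA3, the inhibitor alpha-1-antichymotrypsin, was at 164 FPKM in sh#7, 455 FPKM in sh#2 and 554 FPKM in control. SERPING1, the C1 inhibitor, was at 0.921 FPKM in sh#7, 5.89 FPKM in sh#2 and 6.02 FPKM in control. IL1RN, the interleukin-1 receptor antagonist, was at 3.36, 12.3 and 18.7 FPKM in sh#7, sh#2 and control. The 1 higher gene was HAMP, which encodes the iron hormone hepcidin, at 257 FPKM in sh#7, 171 FPKM in sh#2 and 102 FPKM in control.

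Negative acute phase genes, whose proteins decrease during the acute phase, were counted in the same way. Of 9 compared, 5 were past 2-fold lower and 0 higher in sh#7, with a median of -1.26, and 2 were lower and 0 higher in sh#2, with a median of -0.10. ALB (albumin) was at 1947 FPKM in sh#7, 5501 FPKM in sh#2 and 5468 FPKM in control. RBP4, the plasma retinol carrier, was at 401 FPKM in sh#7, 899.8 FPKM in sh#2 and 961 FPKM in control. Like HP, these 2 genes were low in sh#7 alone, and so was APOA1, the main protein of high density lipoprotein, which is on this list and on that of receptors and partners. AHSG and TTR were past 2-fold lower in both lines. The positive and the negative lists thus lay on the same side of the control in sh#7.

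**Figure D4:**
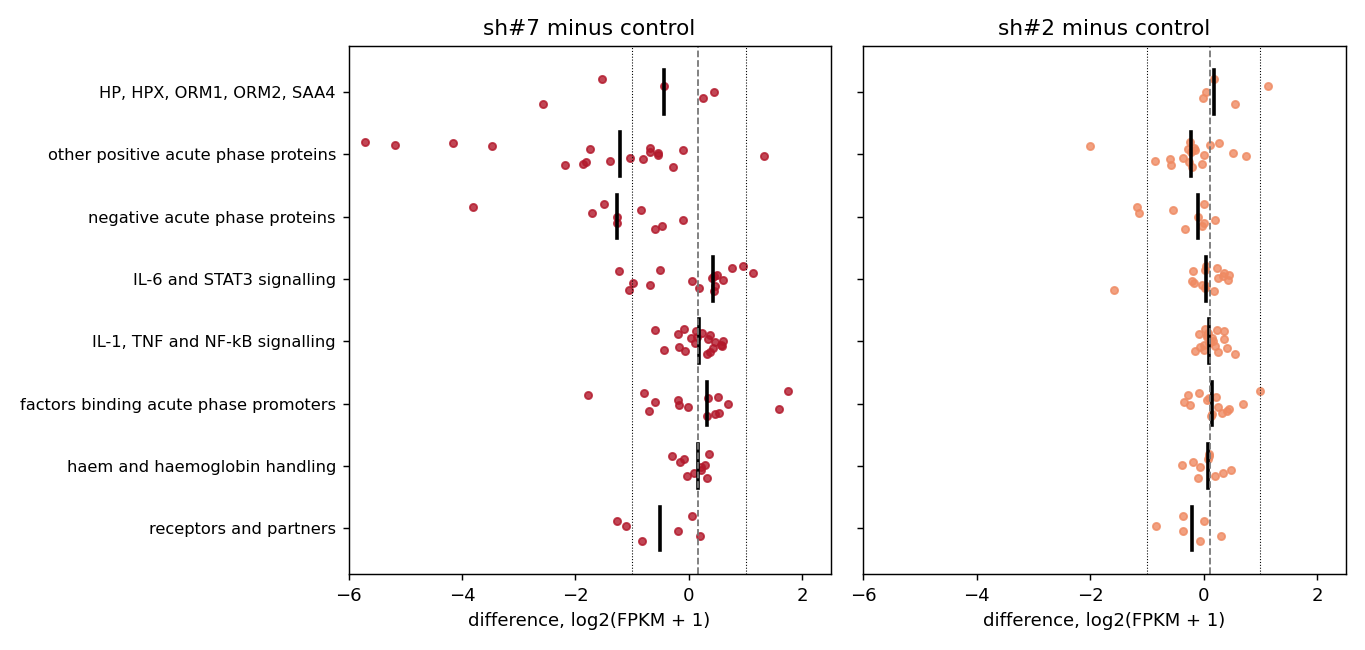
Differences in log2(FPKM + 1) from control for sh#7 (left) and sh#2 (right), by gene list. Points are compared genes, black bars list medians, the dashed line is the median of all compared genes and dotted lines mark 2-fold. The 2 acute phase lists lie to the left in sh#7, with medians of -1.22 and -1.26, and the signalling and haem lists lie around the dashed line.

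Genes of the interleukin-6 and STAT3 pathway lay on both sides of the control in sh#7. Of 16 compared, 1 was past 2-fold higher and 2 lower in sh#7, and 1 was lower in sh#2, with medians of 0.42 and 0.04. JAK1, a kinase bound to the interleukin-6 receptor complex, was at 28.0 FPKM in sh#7, 15.9 FPKM in sh#2 and 12.2 FPKM in control. OSMR, the receptor subunit for oncostatin M, was at 10.2, 22.1 and 25.2 FPKM in sh#7, sh#2 and control. PIM1, a kinase gene induced by STAT3, was at 27.9 FPKM in sh#7, 19.2 FPKM in sh#2 and 59.0 FPKM in control, low in both lines. SOCS3 and IL6R were under the 2-fold threshold on the log2(FPKM + 1) scale but past it as ratios of FPKM, and were named after their values were seen. SOCS3, an inhibitor of the pathway that STAT3 induces, was at 0.529 FPKM in sh#7, 1.69 FPKM in sh#2 and 2.03 FPKM in control, so that sh#7 was at 26.1% of the control (19.3 to 34.5). IL6R, the interleukin-6 receptor, was at 20.5 FPKM in sh#7, 10.3 FPKM in sh#2 and 10.0 FPKM in control, and sh#7 was at 204% of the control (191 to 218).

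Of 20 compared genes of interleukin-1, TNF and NF-kB signalling, 0 were past 2-fold in either direction in either line. The medians were 0.19 in sh#7 and 0.10 in sh#2. Of all compared genes, 2.48% were past 2-fold lower and 2.35% higher in sh#7, and 0.723% and 0.506% in sh#2. A count of 0 of 20 is near these shares. The most abundant of the 20 were NFKBIA, the inhibitor of NF-kB, IRAK1, a receptor-associated kinase, and TNFRSF1A, a TNF receptor. NFKBIA was at 151 FPKM in sh#7, 148 FPKM in sh#2 and 111 FPKM in control.

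Among 15 compared transcription factors that bind acute phase promoters, 2 were past 2-fold higher and 1 lower in sh#7, and 0 were past 2-fold in sh#2. The C/EBP genes went in different directions. CEBPA was at 121 FPKM in sh#7, 71.9 FPKM in sh#2 and 35.5 FPKM in control, with log2 differences of 1.74 in sh#7 and 1.00 in sh#2, the second just under the threshold, although CEBPA in sh#2 was at 203% of the control as a ratio of FPKM. CEBPD, which is induced in the acute phase, was at 13.9 FPKM in sh#7, 40.8 FPKM in sh#2 and 49.9 FPKM in control. NR3C1, the glucocorticoid receptor, was at 14.5 FPKM in sh#7, 5.99 FPKM in sh#2 and 4.13 FPKM in control. Low CEBPD in sh#7 and low HP and SAA4 in sh#7 are values side by side, and the part of one in the other was not tested.

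Partners of haptoglobin and hemopexin in haem handling were counted in the same way. Of 10 compared, 0 were past 2-fold in either line, which is near the shares of all compared genes given above. The medians were 0.15 in sh#7 and 0.08 in sh#2. Single differences ran from -0.30 to 0.36 in sh#7, and from -0.37 (LRP1) to 0.49 (FTL) in sh#2. The most abundant of the 10 were the ferritin genes FTL and FTH1 and the biliverdin reductase gene BLVRA. FTH1 was at 1645 FPKM in sh#7, 1344 FPKM in sh#2 and 1413 FPKM in control. CD163, the macrophage receptor for haptoglobin with haemoglobin, did not exceed 0.0107 FPKM, and was named after its values were seen. Of 14 receptors and partners, 6 were compared, and 2 of them, APOA1 and APOA2, were past 2-fold lower in sh#7. Their median differences were -0.51 in sh#7 and -0.21 in sh#2. APOA1 was at 1081 FPKM in sh#7, 2629 FPKM in sh#2 and 2616 FPKM in control. APOA2 was at 2877 FPKM in sh#7, 3424 FPKM in sh#2 and 6168 FPKM in control.

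No compared gene next to SAA4 or HP was as low in sh#7. Around each locus, 5 compared genes on each side were taken in RefSeq order on GRCh38.p14, used for order only. Of 10 around the SAA genes on chromosome 11, 1 was past 2-fold lower in sh#7 and 0 in sh#2, with medians of -0.15 and 0.02. That gene was LDHA, the lactate dehydrogenase gene, at 587 FPKM in sh#7, 984 FPKM in sh#2 and 1400 FPKM in control, named after its values were seen. HPS5, the nearest compared neighbour of the SAA genes, was at 4.16 FPKM in sh#7, 5.38 FPKM in sh#2 and 4.56 FPKM in control. Of 10 around HP on chromosome 16, 0 were past 2-fold in either line, and the lowest was HPR at -0.83 in sh#7. DHODH, on the other side of HP, was at 8.91 FPKM in sh#7, 8.93 FPKM in sh#2 and 6.93 FPKM in control. Of 10 around the ORM genes, 0 were past 2-fold in either line, with COL27A1 at 0.66 and AKNA at 0.48 in sh#7. The nearest neighbours of HPX, APBB1 and TRIM3, were at -0.80 and 0.45 in sh#7. As a ratio of FPKM, APBB1 in sh#7 was past 2-fold, at 29.8% of the control (20.0 to 42.7), against 69.5% for HPX. Around HPX, 1 of 10 was past 2-fold lower in each line and 0 were higher. That gene was HBE1, a globin gene described below, at step 42 on its side. It passed the minimum of 1 FPKM through the control library alone, so its being lower in both lines follows in part from the filter. Around LBP, where BPI was listed at 0 and RALGAPB was at 0.39 in sh#7, 0 of 10 were past 2-fold.

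**Figure D5:**
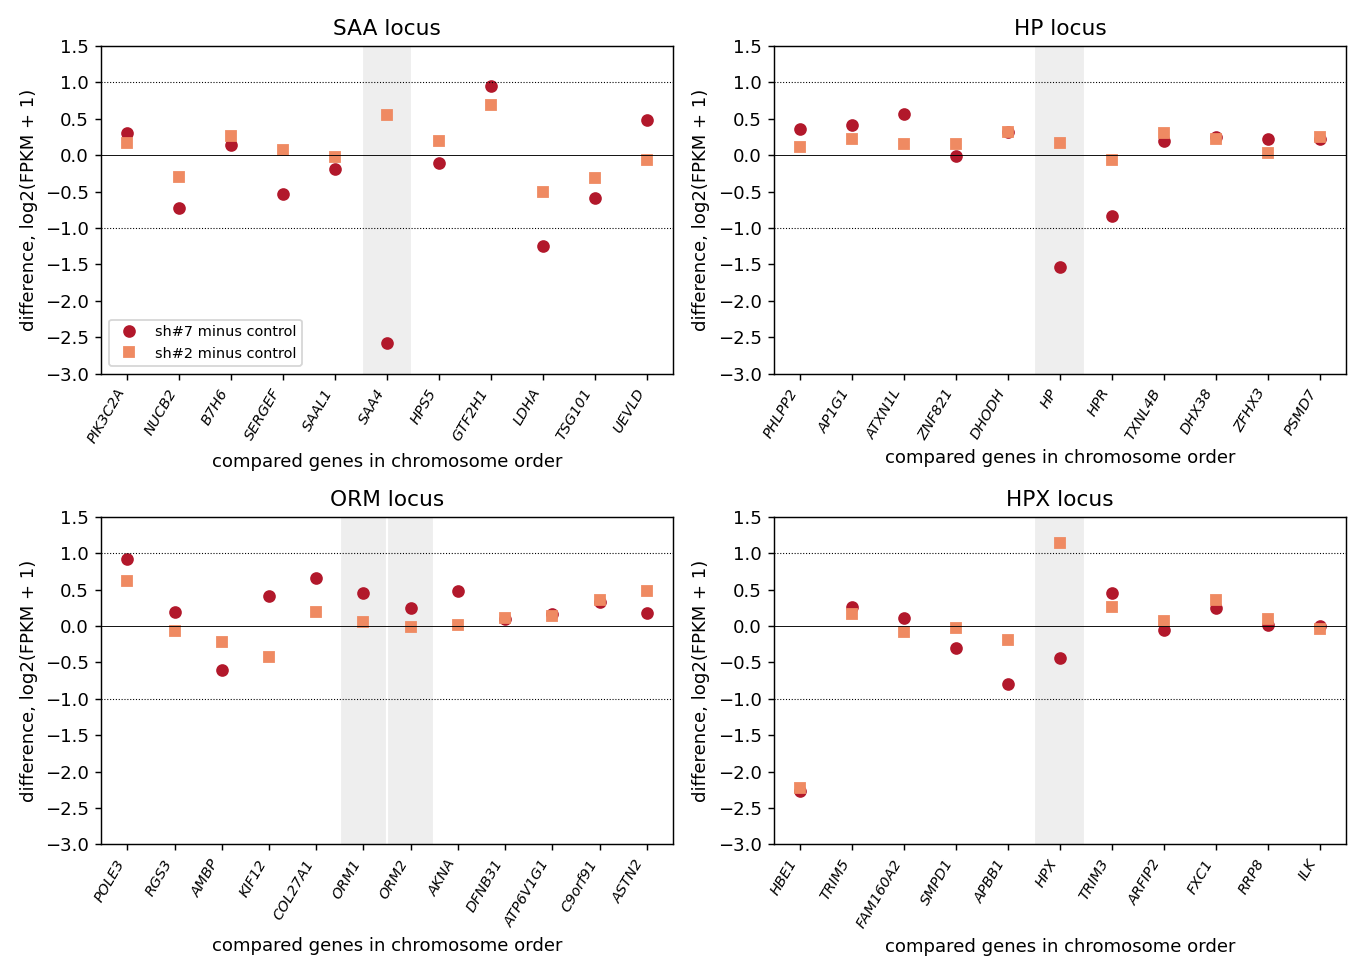
Differences in log2(FPKM + 1) from control for sh#7 (circles) and sh#2 (squares) in compared genes around 4 loci, in chromosome order and not to distance. Grey bands mark the acute phase genes described, and dotted lines mark 2-fold. SAA4 at -2.58 and HP at -1.54 in sh#7 stand below their neighbours, and HPX at 1.14 in sh#2 stands above its own.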

How the data were processed

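The deposited table gives FPKM as the authors computed it, for each gene and library. The tools were STAR 2.4.0j, HTSeq, Cufflinks 2.2.1 and build hg19, per the submitters' processing notes. The sources used here give no roles, annotation or filters. Because FPKM is scaled to the mapped total, changes of abundant genes move the rest.

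The 8 genes and the 7 other gene lists were chosen with earlier results of these data known. With 1 library a group and no counts, nothing was tested. Differences were taken as log2(FPKM + 1), over genes averaging 1 FPKM or more. Fragments were estimated from single-fragment steps in genes with 1 GENCODE 29 transcript, which fitted best with 200 bases taken off each length, and are approximate. Intervals are exact 95% intervals (Clopper-Pearson for ratios, Poisson for levels) on those fragments, made with scipy 1.17.1. Only the ratio intervals were run on simulated counts, drawn with the same depths and lengths in genes more abundant than SAA1, SAA2 and LBP. That run checks the calculation and cannot check the fragment estimates. The intervals cover counting error only.

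Named genes were FTO, each list's genes past 2-fold in either line (or, with none, its 3 most abundant), the 2 genes nearest in pattern to each compared gene, and the nearest protein-coding neighbours. Coding alignments used Biopython 1.88. Alternatives were the pseudocount, the filter, the fold, 3 scalings, summed near-identical pairs and, added after seeing the data, HP summed with HPR.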

Additional observations from a re-analysis of the deposited data

Results flagged for a closer look

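In 3 of the genes the knockdown lines lay on opposite sides of the control beyond counting error in FPKM as deposited. The difference between the lines was not tested, since each is 1 library. On the log2(FPKM + 1) scale, the HP level minus that of the control was -1.54 in sh#7, against 0.17 in sh#2. The sh#2 value of HP was 0.06 with median-of-ratios and 0.08 with upper-quartile scaling, close to the control. SAA4 differed by -2.58 in sh#7 and 0.55 in sh#2. HPX differed by -0.43 in sh#7 and 1.14 in sh#2. In none of them does the order of the 3 libraries follow the order of FTO.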

How the results depend on the processing

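No paired analysis was possible because there is 1 library for each group, and for the same reason no library could be left out. Every count of genes past 2-fold was the same under all alternatives run, a 1.5-fold threshold included. Only the 5 compared genes could enter these counts. SAA1, SAA2 and LBP, at 0.398 FPKM or less, could not reach the threshold with a pseudocount of 1. The run with a pseudocount of 0.1 kept the minimum of 1 FPKM, which left them out. The median difference of the compared genes in sh#7 against control was -0.43, and became -0.122 without a filter on low values, -0.59 with median-of-ratios scaling and -0.99 with near-identical pairs summed. In sh#2 against control it was 0.17, and became 0.055 with median-of-ratios scaling, 0.083 with upper-quartile scaling and 0.36 with pairs summed. In sh#7 against sh#2 it was -1.57, and became -1.74 with a pseudocount of 0.1 and -0.40 without a filter. Without a filter the 3 genes near 0 enter the median, and with pairs summed fewer values make it up. With median-of-ratios scaling, sh#7 against control was shifted by -0.19 on the log2 scale for FPKM, and the middle gene, HPX, was at -0.59. In sh#2 against control the middle gene was HP, at 0.055 with that scaling and 0.083 with upper-quartile scaling. A smaller pseudocount changes the log2 scale itself, most for low genes. Of 99 single values of the 8 genes, 55 moved by no more than the half-width of their counting interval and 44 were labelled moved. Of those past 2-fold 0 changed sign. Of 600 values of 50 other named genes, 366 stayed, 234 were labelled moved and 0 past 2-fold changed sign. For values past 2-fold in either set, the scalings and the pseudocount could not have changed a sign. The scalings shifted differences by at most 0.19, and a smaller pseudocount cannot turn a sign. Where a fragment estimate rounded to 0 or no usable length was at hand, the half-width was set to 0. Any change was then labelled moved, as for SAA1, SAA2 and LBP in comparisons with sh#7, so the moved labels there do not mean that an interval was left. Depth limits SAA1, SAA2 and LBP, which rest on at most about 10.9 fragments in a library.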

Other observations

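HBE1, which encodes embryonic epsilon globin, was the gene past 2-fold lower around HPX, and was chosen after its values were seen. It was at 0.0349 FPKM in sh#7, 0.0689 FPKM in sh#2 and 3.999 FPKM in control, or about 0.7, 1.3 and 78.0 fragments. Unlike HP and HPX, it was low in both lines, with log2 differences of -2.27 in sh#7 and -2.23 in sh#2. It averaged 1 FPKM or more through the control library alone, so low values in both lines follow in part from that filter. Of the other globin genes looked up, HBQ1 was at 3.72 FPKM in sh#7, 5.41 FPKM in sh#2 and 6.12 FPKM in control. HBA1 was highest in sh#2, at 0.0590, 0.569 and 0.173 FPKM in sh#7, sh#2 and control, or about 1.0, 10.0 and 3.1 fragments. HBG2 was listed above 0 in control only, at 0.0562 FPKM, and HBZ in sh#2 only, at 0.0556 FPKM. HBB, HBD, HBG1, HBA2 and HBM were listed at 0 in all 3 libraries.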
